A study of Rattus norvegicus with 15 samples.

Results

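Levels of 9 proliferation genes, Mki67, Top2a, Cdk1, Ccnb1, Ccna2, Pcna, Plk1, Aurkb and Birc5, were followed in rat primary astrocytes after oxidative injury and after a later supply of mitochondria or their RNA. The 9 genes were taken by Ensembl identifier from a list that gives the chromosome of each symbol, and an identifier was kept only where the chromosome in the count files agreed, which it did for 9 of 9. They are 9 of the 32552 genes in the files, and 9 of 9 passed the filter on low counts in each of the 10 comparisons made. The symbols come with the list, since the files give identifiers only.

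The astrocytes came from cortices of wild-type Sprague Dawley rats 1 to 2 days old, and the 15 libraries fall into 5 groups of 3. Control astrocytes received sterile water as vehicle, and the H2O2 group received 100 µM H2O2 for 30 min. The other groups received the same H2O2 exposure and, 24 h later, unmodified mitochondria isolated from cryopreserved rat placenta, MitoCoat, which is the same kind of mitochondria encapsulated in the lipids DOTAP and DOPE, or MitoCoat-mRNA, which is RNA from such mitochondria in the same lipids. RNA was collected 6 h after these treatments. No group received mitochondria or RNA without H2O2, and the deposited extraction text speaks of mitochondria-enriched fractions, whereas the study's methods describe RNA of the treated astrocytes, which is how the libraries are read here. The recipient and the donor are both rat, so reads from delivered RNA and from the astrocytes' own RNA cannot be told apart. The study describes the 3 samples of a group as biological replicates, and neither the labels nor the methods say whether they came from separate animals or culture preparations, so p-values measure the spread between these samples.

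Libraries held 35315654 to 46778663 counted reads, and mitochondrial genes took 2.81% to 4.61% of them. Member genes held between 550 reads (Birc5) and 7177 reads (Pcna) in a library, for which counting error alone is 4.26% and 1.18%. Levels are given as CPM, the reads of a gene scaled to a common library size, after TMM scaling, which corrects library totals for a few genes taking many reads, and the scaling factors lay between 0.971 and 1.04. The astrocyte label was not checked against cell type markers here. In bulk RNA, fewer dividing cells and less RNA per dividing cell cannot be told apart.

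Proliferating cells pass through DNA synthesis and then mitosis, and many of the genes described here are transcribed mainly from the one to the other. Cyclins are proteins that accumulate and are destroyed in each round and that switch on cyclin-dependent kinases. Ccna2 encodes cyclin A2, which acts in DNA synthesis and entry into mitosis, Ccnb1 encodes cyclin B1, and Cdk1 encodes the kinase that cyclin B1 activates at mitotic entry. Plk1 and Aurkb encode mitotic kinases, and Birc5 encodes survivin, which works with Aurora B in the chromosomal passenger complex. Top2a encodes the topoisomerase that untangles duplicated chromosomes, Pcna encodes the sliding clamp of DNA polymerase and also serves in DNA repair, and Mki67 encodes the Ki-67 antigen, a common marker of cycling cells. Astrocytes of newborn rodents still divide in culture.

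In control astrocytes each gene was well above the counting floor. Expressed per kilobase of exon, so that genes of different length can be compared, Pcna was the highest at 118.6 ± 15.1 CPM per kb (SD, n = 3), followed by Cdk1 at 60.9 ± 13.5. Ccnb1 (31.6 ± 5.33), Plk1 (28.7 ± 0.648), Birc5 (24.5 ± 3.99), Top2a (22.3 ± 2.44) and Ccna2 (17.8 ± 2.65) came next, and the control libraries of each neighbouring pair among these overlapped. Mki67 (9.49 ± 1.97) and Aurkb (7.31 ± 0.467) were the lowest, and neither overlapped its neighbour in the order.

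The stretch before the gene's start is shown for the 3 genes that lay below every control library in all 12 H2O2-exposed libraries, Ccnb1, Plk1 and Birc5, and for Pcna, which did so in 0 of 12. The sequences are RefSeq promoter windows on build GRCr8, a different build from that of the counts, and were matched by symbol. The 250 bases shown run 5′ to 3′ up to the start, at chr2:33655226-33655475 on the minus strand for Ccnb1, chr1:186147408-186147657 on the plus strand for Plk1, chr10:103571896-103572145 on the plus strand for Birc5 and chr3:139955821-139956070 on the minus strand for Pcna. Capitals mark 3 motifs on either strand, which are the cell cycle homology region (CHR, TTTGAA), a CHR variant (TTTAAA) and the CCAAT box (CCAAT).
Ccnb1: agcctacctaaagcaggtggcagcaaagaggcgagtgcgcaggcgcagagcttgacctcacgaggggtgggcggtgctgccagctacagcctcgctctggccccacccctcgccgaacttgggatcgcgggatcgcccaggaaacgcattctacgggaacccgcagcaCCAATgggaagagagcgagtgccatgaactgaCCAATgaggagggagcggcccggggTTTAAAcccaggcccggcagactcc
Plk1: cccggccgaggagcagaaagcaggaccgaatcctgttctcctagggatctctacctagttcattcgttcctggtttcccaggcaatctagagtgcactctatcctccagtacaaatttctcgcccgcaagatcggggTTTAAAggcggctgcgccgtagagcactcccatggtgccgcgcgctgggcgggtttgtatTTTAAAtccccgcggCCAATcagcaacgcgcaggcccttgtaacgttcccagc
Birc5: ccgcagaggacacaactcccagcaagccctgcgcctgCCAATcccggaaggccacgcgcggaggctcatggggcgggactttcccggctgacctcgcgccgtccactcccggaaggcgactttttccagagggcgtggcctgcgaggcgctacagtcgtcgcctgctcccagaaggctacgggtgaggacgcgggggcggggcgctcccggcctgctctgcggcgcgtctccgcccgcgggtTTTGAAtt
Pcna: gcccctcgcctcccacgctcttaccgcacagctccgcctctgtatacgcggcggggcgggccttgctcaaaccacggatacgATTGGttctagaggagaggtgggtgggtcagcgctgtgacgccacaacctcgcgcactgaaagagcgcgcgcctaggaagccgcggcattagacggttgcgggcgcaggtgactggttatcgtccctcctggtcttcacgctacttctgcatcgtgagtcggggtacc

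The search covered 300 bases, the 250 above and 50 after the start, and 7 of the 9 members had a window, the other members being Ccna2 and Aurkb. CHR was found in 5 of the 7 (Mki67, Top2a, Cdk1, Plk1 and Birc5), against 18.3% of all 33469 windows in the table. The variant was found in 2 of 7 (Ccnb1 and Plk1), against 13.6%, and CCAAT in 7 of 7, against 37.5%. CHR or its variant together with CCAAT was present in 6 of 7, against 11.3% of all windows, and Pcna was the member without it. Counted from the start, with bases before it negative, the variant of Ccnb1 began at -25 and its CCAAT boxes at -82 and -50. The CHR of Birc5 began at -8, the variants of Plk1 at -113 and -53, and the only motif of Pcna, a CCAAT box, at -168. Plk1 also had a CHR at 7, after the start. In Mki67 the CHR at -99 and the CCAAT box at -94 share 1 base. A match of letters is a description of the window and was not tested as a binding site.

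**Figure D1:**
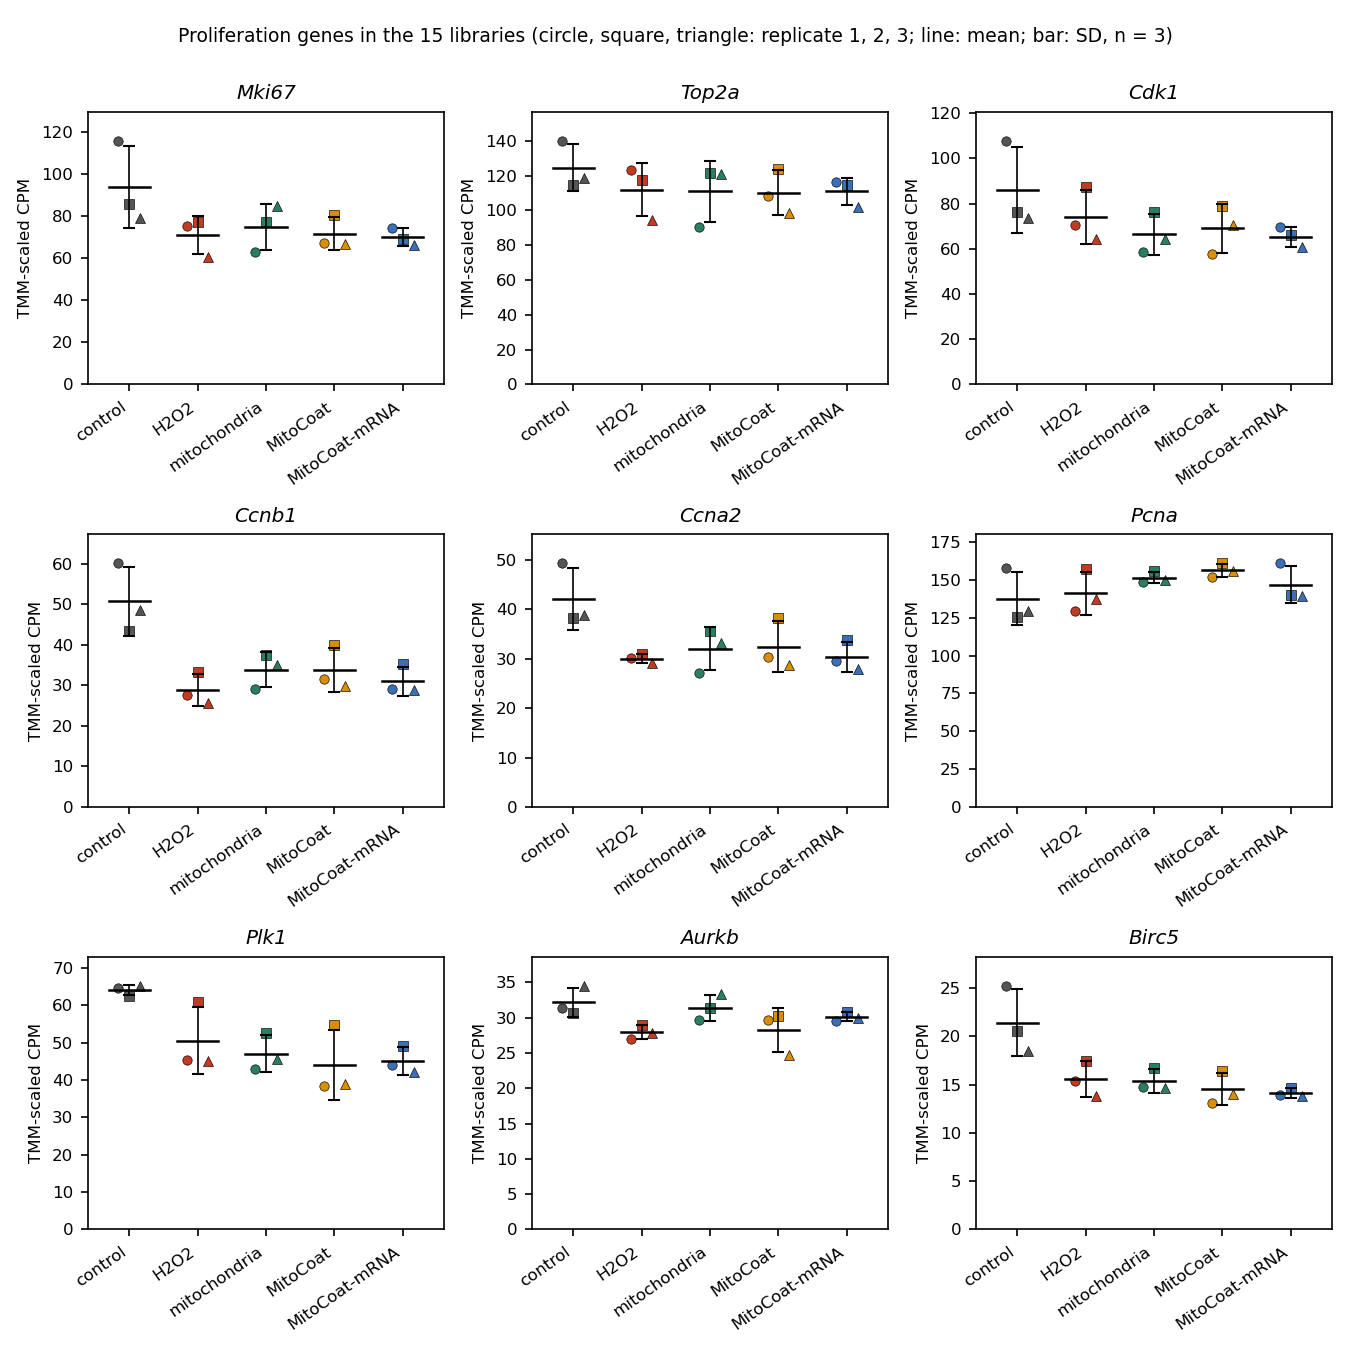
Level of each of the 9 genes (y axis, TMM-scaled CPM) in each library of the 5 groups (x axis), with 1 point per library and the group mean and SD. Ccnb1, Plk1 and Birc5 lie below the lowest control library in 12 of 12 exposed libraries, while Pcna lies below it in 0 of 12.

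Cyclin B1 showed the largest difference of the 9 after H2O2. Ccnb1 (ENSRNOG00000058539, Rnor6.0 chr2:30783915-30791221) stood at 60.1, 43.3 and 48.6 CPM in the control libraries and at 27.6, 33.2 and 25.7 CPM after H2O2 alone. The libraries given unmodified mitochondria stood at 29.0, 37.5 and 34.95 CPM. Those given MitoCoat stood at 31.6, 39.9 and 29.8 CPM, and those given MitoCoat-mRNA at 29.0, 35.2 and 28.8 CPM. The highest exposed library was below the lowest control library, and the 4 exposed groups overlapped each other. H2O2 against control gave a log2 fold change of -0.80 (SE 0.146, edgeR adjusted p = 0.0155), so that Ccnb1 fell to 57.4% of control with a 95% confidence interval of 45.6% to 72.4%.

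Cyclin A2 followed with a smaller change. Ccna2 (ENSRNOG00000015423, chr2:123275881-123282214) was at 49.3, 38.2 and 38.8 CPM in control and at 30.1, 30.9 and 29.1 CPM after H2O2, and these groups did not overlap. In the mitochondria libraries it was at 27.2, 35.6 and 33.3 CPM, in the MitoCoat libraries at 30.3, 38.3 and 28.7 CPM, and in the MitoCoat-mRNA libraries at 29.5, 33.8 and 27.9 CPM. In 11 of 12 exposed libraries it was below every control library, the exception being MitoCoat replicate 2. Ccna2 fell to 72.0% of control after H2O2 (60.0% to 86.3%, log2 fold change -0.47, SE 0.115, edgeR adjusted p = 0.0437), and this call was lost when any 1 of the 6 libraries was left out (adjusted p from 0.0758 to 0.139). The kinase partner, Cdk1 (ENSRNOG00000000632, chr20:20576377-20591549), ranged from 73.8 to 107.8 CPM in control and from 64.2 to 87.3 CPM after H2O2, and these ranges overlapped. Its log2 fold change was -0.20 (95% interval -0.58 to 0.18, edgeR adjusted p = 0.525).

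Plk1, Birc5 and Aurkb did not pass the test after H2O2 alone. Plk1 (ENSRNOG00000018815, chr1:192115966-192125989) was at 64.7, 62.5 and 65.3 CPM in control, a spread of 1.45 CPM (SD), and at 45.5, 61.0 and 45.2 CPM after H2O2. The level in the mitochondria libraries was 42.9, 52.5 and 45.6 CPM, in the MitoCoat libraries 38.4, 54.7 and 39.0 CPM, and in the MitoCoat-mRNA libraries 43.9, 49.2 and 42.0 CPM. H2O2 replicate 2 lay closest to control, and the log2 fold change of Plk1 after H2O2 was -0.33 (SE 0.127, edgeR adjusted p = 0.169). Without that replicate it was -0.50, with an adjusted p of 0.0235.

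Survivin was lower in each exposed group than in control. Birc5 (ENSRNOG00000050819, chr10:106856097-106864413) was at 25.2, 20.5 and 18.4 CPM in control and at 15.4, 17.5 and 13.9 CPM after H2O2. The mitochondria libraries held it at 14.7, 16.8 and 14.6 CPM, the MitoCoat libraries at 13.1, 16.4 and 14.1 CPM, and the MitoCoat-mRNA libraries at 13.9, 14.7 and 13.8 CPM. Every exposed library was below every control library, and the log2 fold change after H2O2 was -0.44 (SE 0.149, edgeR adjusted p = 0.120). Aurkb (ENSRNOG00000005659, chr10:55626741-55634991), the partner of survivin, ranged from 30.7 to 34.5 CPM in control and from 24.7 to 33.3 CPM in the exposed libraries. Its log2 fold change after H2O2 was -0.19 (SE 0.0938, edgeR adjusted p = 0.266).

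The remaining members, Pcna, Top2a and Mki67, also differed less than Ccnb1 after H2O2. Pcna (ENSRNOG00000021264, chr3:124880698-124884570) was at 157.7, 125.4 and 129.7 CPM in control and at 129.7, 157.1 and 137.1 CPM after H2O2. The mitochondria libraries were at 148.9, 155.7 and 149.9 CPM, the MitoCoat libraries at 152.0, 160.8 and 156.1 CPM, and the MitoCoat-mRNA libraries at 161.0, 140.0 and 139.2 CPM. No group stood apart from control, 2 of 12 exposed libraries were above the highest control library, and the log2 fold change after H2O2 was 0.05 (95% interval -0.21 to 0.32, edgeR adjusted p = 0.833). Top2a (ENSRNOG00000053047, chr10:86901007-86932154) ranged from 114.7 to 140.1 CPM in control and from 90.4 to 123.9 CPM in the exposed libraries, which overlapped. Its log2 fold change after H2O2 was -0.14 (edgeR adjusted p = 0.545). Mki67 (ENSRNOG00000028137, chr1:207993895-208020454) was at 115.9, 86.0 and 79.3 CPM in control and at 75.3, 77.2 and 60.6 CPM after H2O2, with no overlap. Its log2 fold change was -0.39 (SE 0.155, edgeR adjusted p = 0.185).

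As a set, 2 of the 9 genes (Ccnb1 and Ccna2) were called lower and 0 higher after H2O2, where 4.22% of the 15650 genes tested were called lower. The log2 fold change was negative for 8 of 9, against 49.1% of all genes tested, with a median of -0.33 against 0.0058 over all genes tested. The H2O2 libraries were all below the control libraries for 6 of 9 (Mki67, Ccnb1, Ccna2, Plk1, Aurkb and Birc5), which held for 14.5% of all genes tested. Both calls depended on single libraries. Without H2O2 replicate 3, 0 of 9 were called and Ccnb1 had an adjusted p of 0.0603, while Ccnb1 was called when any other library was left out.

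The same genes were then compared between control and the groups that received a treatment after H2O2. These 3 comparisons share the control libraries with each other and with the H2O2 comparison, so each is given by its own values. With unmodified mitochondria, 3 of 9 were lower, against 12.2% of the genes tested. They were Ccnb1 at 66.8% of control (log2 fold change -0.58, SE 0.138, edgeR adjusted p = 0.0157), Plk1 at 73.3% (-0.45, SE 0.0906, adjusted p = 0.00753) and Birc5 at 71.9% (-0.48, SE 0.136, adjusted p = 0.0349). Ccna2 had a log2 fold change of -0.39 and an adjusted p of 0.0613, and it was called lower with DESeq2 (adjusted p = 0.0272), without the filter (0.0373), with all 15 samples in one fit (0.0430) and with the replicate block (0.0400). The median of the 9 was -0.37 against 0.0032 over all genes, and 4 of 9 (Ccnb1, Ccna2, Plk1 and Birc5) had all treated libraries below all control libraries, against 19.6% of all genes. Leaving out mitochondria replicate 1 left 1 gene called, Plk1, and gave Ccnb1 an adjusted p of 0.0572. The call of Birc5 was lost without that library, control replicates 1 or 2, or mitochondria replicates 2 or 3 (adjusted p from 0.0589 to 0.104), and that of Plk1 was kept whichever library was left out.

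With MitoCoat, the 3 genes called lower were again Ccnb1, at 66.2% of control (log2 fold change -0.59, SE 0.148, edgeR adjusted p = 0.0198), Plk1, at 68.1% (-0.55, SE 0.135, adjusted p = 0.0177), and Birc5, at 67.4% (-0.57, SE 0.148, adjusted p = 0.0236). The background was 13.1% of the genes tested. Ccna2 (-0.39, adjusted p = 0.0781) and Mki67 (-0.40, adjusted p = 0.0787) did not pass, and both did with DESeq2, which called 5 of 9. Mki67 also passed without the filter on low counts (adjusted p = 0.0465) and Ccna2 with all 15 samples in one fit (adjusted p = 0.0454), each giving 4 of 9. The 13.1% belongs to the main edgeR fit, and no share is given for these alternatives. Treated libraries were all below control for 4 of 9 (Ccnb1, Plk1, Aurkb and Birc5), against 20.0% of all genes. Without MitoCoat replicate 3, 0 of 9 were called, and the adjusted p of the 3 genes lay between 0.0598 and 0.0671. The call of Plk1 was also lost without control replicate 3 (adjusted p = 0.0543), and that of Birc5 without control replicate 1 or 2 or MitoCoat replicate 1 (adjusted p from 0.0511 to 0.0592).

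With MitoCoat-mRNA, 4 of 9 were lower, against 8.72% of the genes tested. Ccnb1 was at 61.4% of control (log2 fold change -0.70, SE 0.136, edgeR adjusted p = 0.0113), Ccna2 at 72.4% (-0.47, SE 0.124, adjusted p = 0.0373), Plk1 at 70.5% (-0.50, SE 0.0806, adjusted p = 0.00512) and Birc5 at 66.2% (-0.59, SE 0.129, adjusted p = 0.0180). Samples of the same number deviated together in this comparison, and with the replicate number as a block 6 of 9 were lower, with Mki67 (log2 fold change -0.40, adjusted p = 0.000338) and Cdk1 (-0.37, adjusted p = 0.000928) added. DESeq2, without a block, called these 6 as well (adjusted p = 0.0265 for Mki67 and 0.0499 for Cdk1), and Mki67 was also called without the filter on low counts (adjusted p = 0.0462). The 8.72% belongs to the edgeR fit without a block, so the counts under these alternatives have no share beside them. Separation of the same kind was seen for 6 of 9 (Mki67, Cdk1, Ccnb1, Ccna2, Plk1 and Birc5), against 18.4% of all genes. The count fell to 2 without control replicate 2, MitoCoat-mRNA replicate 2 or MitoCoat-mRNA replicate 3, and to 3 without control replicate 1 or MitoCoat-mRNA replicate 1. Without control replicate 3 it stayed at 4, with Mki67 called (adjusted p = 0.0461) and Ccna2 not. Ccna2 lost its call whichever library was left out (adjusted p from 0.0537 to 0.114), and Ccnb1 and Plk1 kept theirs.

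Pcna had a positive log2 fold change against control in each treated group, 0.10 for MitoCoat-mRNA (edgeR adjusted p = 0.579), 0.14 for unmodified mitochondria (adjusted p = 0.358) and 0.17 for MitoCoat (adjusted p = 0.245), and none passed. Without control replicate 1, the highest Pcna control library, it was called higher with unmodified mitochondria (0.25, adjusted p = 0.0420) and with MitoCoat (0.28, adjusted p = 0.0411). Top2a had values between -0.19 and -0.16, and Aurkb between -0.20 and -0.03, in the 3 comparisons, with no call for either.

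**Figure D2:**
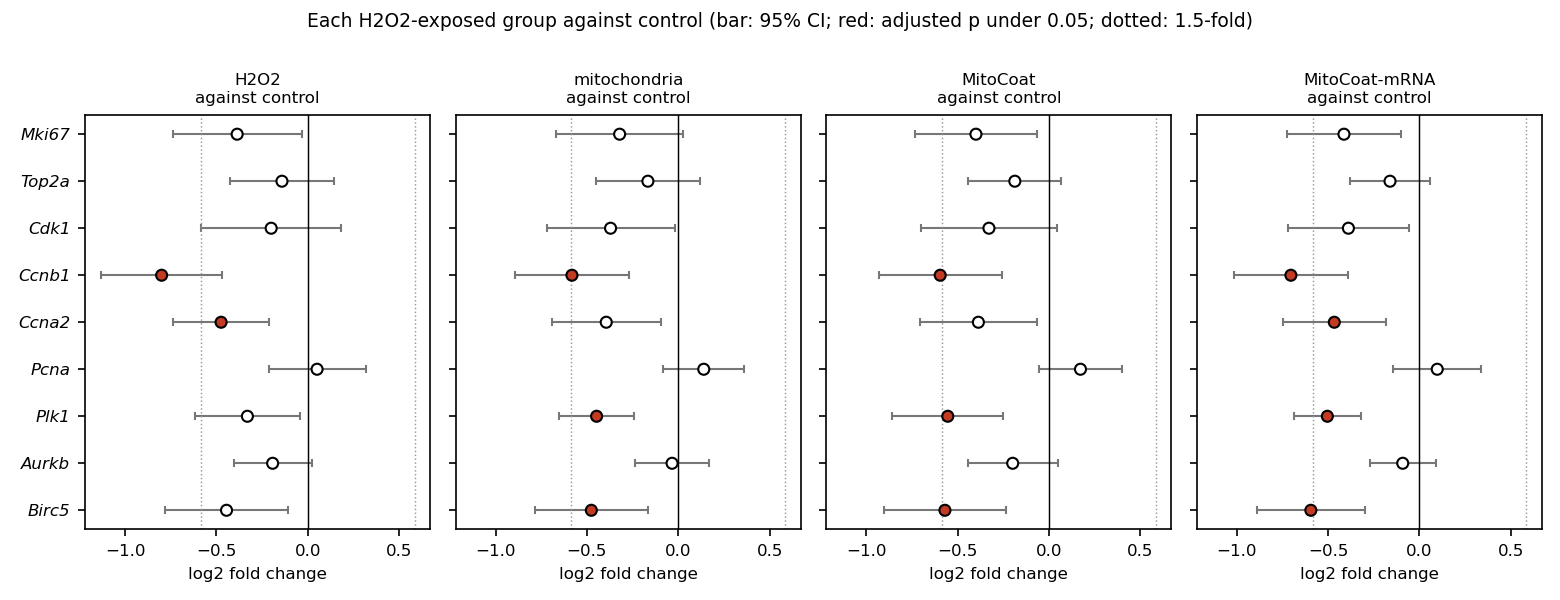
Log2 fold change of each gene (x axis) against control in the H2O2, unmodified mitochondria, MitoCoat and MitoCoat-mRNA groups, with bars for the 95% confidence interval and filled points for an edgeR adjusted p under 0.05. Ccnb1 is filled in all 4 panels, Plk1 and Birc5 in the 3 treated groups, and Pcna in none.

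Counted over the 12 libraries exposed to H2O2, with or without a later treatment, 12 of 12 lay below the lowest control library for Ccnb1, Plk1 and Birc5. The number was 11 for Ccna2, 10 for Mki67, 9 for Cdk1 and Aurkb, 6 for Top2a and 0 for Pcna. Of 16631 genes that passed the filter over the 15 libraries, 7.83% had all 12 exposed libraries below the lowest control. In the exposed libraries Ccnb1 had its lowest, median and highest level at 25.7, 30.7 and 39.9 CPM, Plk1 at 38.4, 45.3 and 61.0 CPM, and Birc5 at 13.1, 14.7 and 17.5 CPM. The gap to control was narrowest for Birc5 and Plk1, whose lowest control libraries were at 18.4 and 62.5 CPM.

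The treatments were next compared with H2O2 alone, which asks whether any of the 9 genes moved after mitochondria or RNA were supplied. None did by the test. With unmodified mitochondria, 0 of 9 were called in either direction by edgeR, DESeq2 called 0, and 0 had an unadjusted p under 0.05, where 3.59% of the genes tested were called and 13.8% had such a p. The corresponding numbers were 0, 0 and 0 of 9 with MitoCoat, against 3.05% and 14.9% of the genes tested, and 0, 0 and 0 of 9 with MitoCoat-mRNA, against 0% and 2.99%. Log2 fold changes ran from -0.17 (Cdk1) to 0.22 (Ccnb1) for unmodified mitochondria, from -0.21 (Plk1) to 0.22 (Ccnb1) for MitoCoat, and from -0.18 (Cdk1) to 0.10 (Aurkb and Ccnb1) for MitoCoat-mRNA.

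The intervals show how large a change could have gone unseen. A change of 1.5-fold either way was outside the 95% interval for 9 of 9 genes in the mitochondria and MitoCoat-mRNA groups and for 8 of 9 in the MitoCoat group. The exception was Plk1 with MitoCoat, whose log2 fold change of -0.21 had an interval of -0.59 to 0.17. For Ccnb1, the gene with the lowest level relative to control, the log2 fold change was 0.10 for MitoCoat-mRNA (-0.19 to 0.39, edgeR adjusted p = 1.00), 0.22 for MitoCoat (-0.11 to 0.55, adjusted p = 0.563) and 0.22 for unmodified mitochondria (-0.08 to 0.52, adjusted p = 0.555). The mitochondria and H2O2 libraries of Ccnb1 overlapped, at 29.0 to 37.5 and 25.7 to 33.2 CPM. Same-numbered samples deviated together with unmodified mitochondria and with MitoCoat-mRNA, and Ccnb1 was higher than in the H2O2 library of the same number in 3 of 3 pairs in each, as was Aurkb. Cdk1, Plk1 and Birc5 were higher in 0 of 3 pairs with MitoCoat-mRNA and in 1 of 3 with unmodified mitochondria. With the replicate block the adjusted p of Ccnb1 was 0.302 and 0.950 in these comparisons, and 0 of 9 genes were called in either. Aurkb was the member whose groups did not overlap, with all 3 libraries above those of H2O2 with unmodified mitochondria (log2 fold change 0.16, adjusted p = 0.539) and with MitoCoat-mRNA (0.10, adjusted p = 1.00). Groups were separated in that direction for 10.1% and 4.42% of all genes tested.

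**Figure D3:**
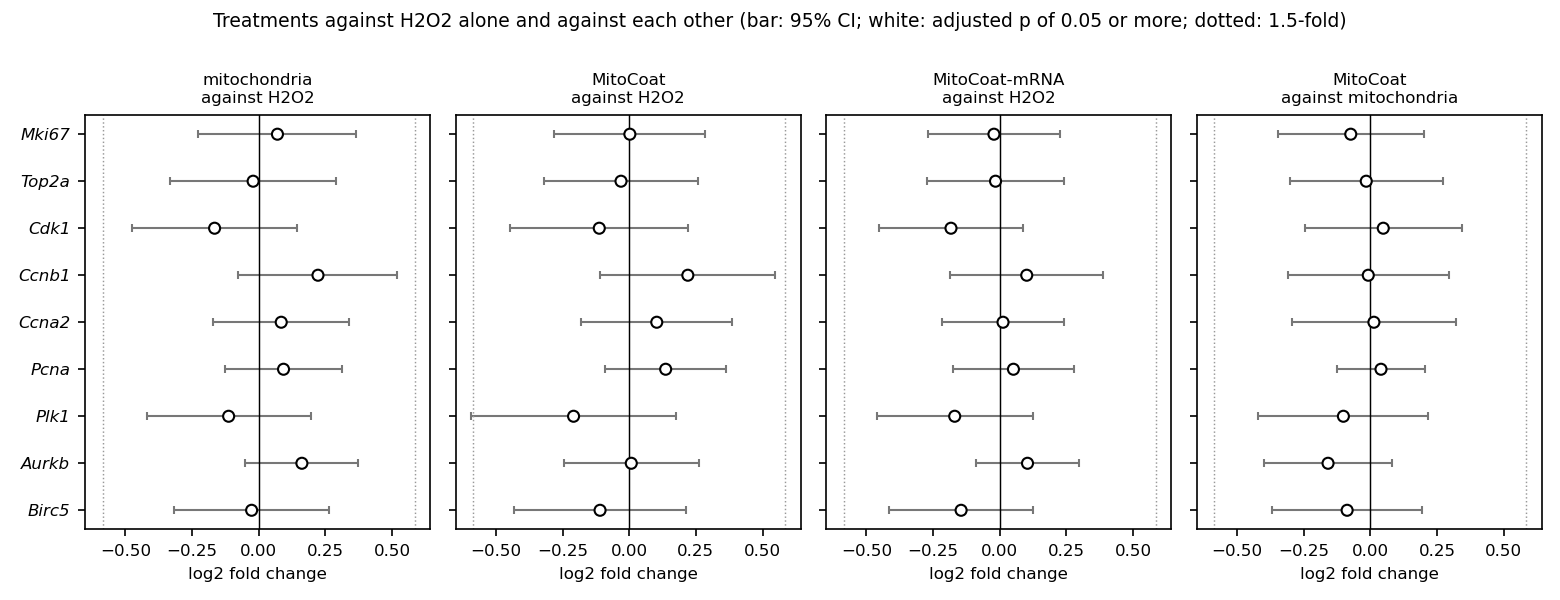
Log2 fold change of each gene (x axis) in the treated groups against H2O2 alone, and in MitoCoat against unmodified mitochondria, with bars for the 95% confidence interval and dotted lines at 1.5-fold. No point is filled, since no edgeR adjusted p was under 0.05, and 1 bar, that of Plk1 with MitoCoat, reaches past a dotted line.

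The lipid coat and the kind of cargo were compared directly as well. MitoCoat against unmodified mitochondria gave 0 of 9 calls by edgeR, 0 by DESeq2 and 0 at an unadjusted p under 0.05, against 0% and 4.95% of the genes tested, and the 9 intervals lay within 1.5-fold. Aurkb had the largest difference, a log2 fold change of -0.16 (-0.40 to 0.08, edgeR adjusted p = 0.892). Unmodified mitochondria against MitoCoat-mRNA gave 0, 0 and 0 of 9, against 3.56% and 14.2%, and log2 fold changes from 0.0038 (Top2a) to 0.13 (Ccnb1). MitoCoat against MitoCoat-mRNA gave 0, 0 and 0 of 9, against 2.98% and 14.8%, with log2 fold changes from -0.10 (Aurkb) to 0.11 (Ccnb1). The 9 intervals of each of these comparisons also lay within 1.5-fold.

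Within a group, the same library was often the highest or the lowest for most of the 9 genes. MitoCoat replicate 2 had the highest level of its group for 9 of 9 genes, H2O2 replicate 2 for 8, control replicate 1 for 7 and mitochondria replicate 2 for 7. Mitochondria replicate 1 was the lowest of its group for 8 of 9, MitoCoat-mRNA replicate 3 for 8 and H2O2 replicate 3 for 7. In other groups the extremes were split, with the highest level in MitoCoat-mRNA replicate 1 for 4 genes and replicate 2 for 5, and the lowest in MitoCoat replicate 1 for 4 and replicate 3 for 5. The summed level of the 9 genes was 652 ± 86.6 CPM in control (SD, n = 3), with single libraries at 752, 597 and 607 CPM. It was 551 ± 56.6 CPM after H2O2, 564 ± 52.3 in the mitochondria group, 560.3 ± 55.1 in the MitoCoat group and 544 ± 29.3 in the MitoCoat-mRNA group, and H2O2 replicate 2 (611), mitochondria replicate 2 (604) and MitoCoat replicate 2 (624) overlapped control. Pcna was left out of the sum after its values were seen, as the gene with a positive log2 fold change against control in each group, so the sum of the other 8 is a description only. It was 472 to 594 CPM in the control libraries and 356 to 463 CPM in the exposed libraries.

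How closely each gene followed the others is a description over the 15 libraries, which share their RNA and their scaling. Pearson's r of a gene's log2 CPM with the mean of the other 8 was 0.928 for Ccna2, 0.920 for Mki67, 0.913 for Ccnb1, 0.867 for Birc5, 0.825 for Cdk1, 0.806 for Plk1 and 0.801 for Top2a. It was 0.470 for Aurkb and 0.025 for Pcna. Among 13289 other genes with a mean of at least 1 CPM, the pattern most like that of the 9 was ENSRNOG00000004479 (chr3:170364181-170378210, r = 0.957), with 35.4 ± 6.53 CPM in control and 28.2 ± 3.10 CPM after H2O2. The next was ENSRNOG00000045752 (chr1:167538263-167562688, r = 0.936), with 176.6 ± 18.6 CPM in control and 135.1 ± 13.6 CPM after H2O2.

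The contrast between Pcna and Ccnb1 can be put as the number of Pcna reads per Ccnb1 read in a library, a ratio that no scaling of libraries changes and that was chosen after the values were seen. It was 2.63, 2.89 and 2.67 in control and 4.70, 4.73 and 5.34 after H2O2. It was 5.14, 4.15 and 4.29 in the mitochondria libraries, 4.80, 4.03 and 5.23 in the MitoCoat libraries, and 5.56, 3.98 and 4.83 in the MitoCoat-mRNA libraries. Every exposed library was above every control library, and the exposed groups overlapped each other. The means were 2.73 ± 0.145 in control, 4.92 ± 0.362 after H2O2, 4.52 ± 0.535 in the mitochondria group, 4.69 ± 0.610 in the MitoCoat group and 4.79 ± 0.788 in the MitoCoat-mRNA group (SD, n = 3). Since the pair was picked for its values, no test is given.

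**Figure D4:**
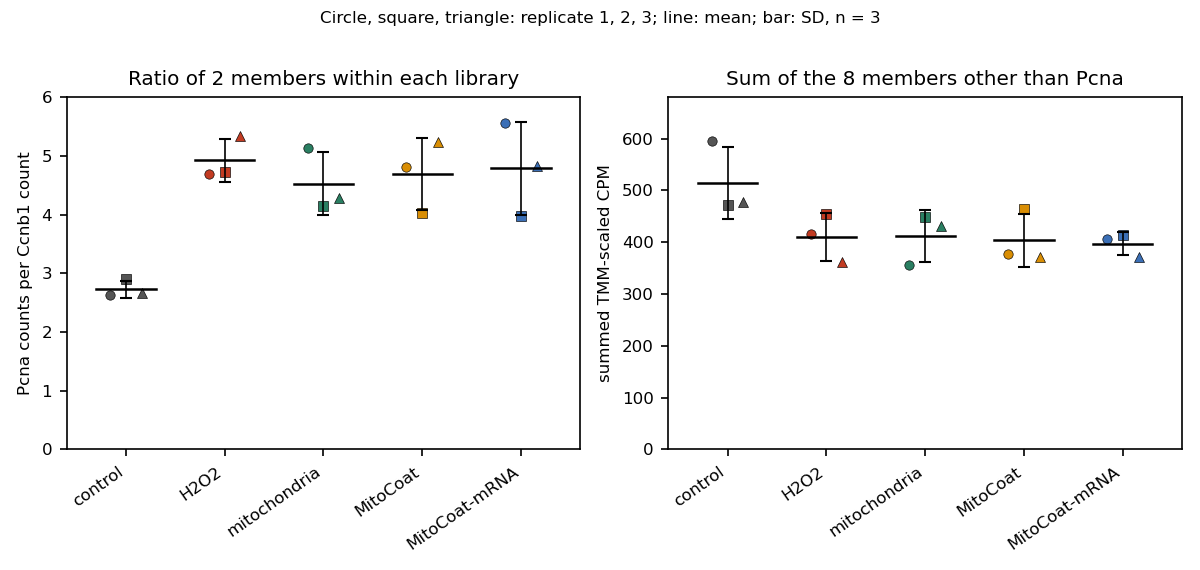
Pcna reads per Ccnb1 read, and the summed level of the 8 genes other than Pcna (TMM-scaled CPM), in each library of the 5 groups. Each library is 1 point, shown with the group mean and SD. The ratio lies between 2.63 and 2.89 in the control libraries and between 3.98 and 5.56 in the exposed libraries. The sum lies between 472 and 594 CPM in control and between 356 and 463 CPM in the exposed libraries. Pcna was left out of the sum after its values were seen.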

How the data were processed

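Polyadenylated RNA of 15 astrocyte samples was sequenced. Per the labels and the study's methods, the authors used Trimmomatic 0.36 for trimming, STAR 2.5.2b for alignment to Rnor6.0 (Ensembl annotation) and then counted uniquely mapped reads over exons with featureCounts (Subread 1.5.2). The deposited values are raw counts per gene, and whether counting used strand in these libraries was not given in the sources used here. No member shares exon bases with another gene. The table deposited for the series is a copy of the file of mitochondria replicate 2 and was not used.

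Each pair of groups (6 libraries) was fitted with edgeR 4.0.16 in R 4.3.3 (filterByExpr, TMM, quasi-likelihood F test, two-sided), and p-values were adjusted by the Benjamini-Hochberg method over all genes tested, with calls at an adjusted p under 0.05. The study used DESeq2, which was run as an alternative (1.42.0). Printed CPM and group overlaps use 1 TMM scaling over the 15 libraries. The 9 members are all named, with the non-members whose log2 CPM (prior count 2) correlated best with their mean. The members and lists were chosen with earlier results of these data known. No table used here pairs the files' identifiers with symbols (0 matched), so lists of other cell cycle genes and of cell type markers were not used.

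Replicate numbers come from the sample titles. Same-numbered samples deviated together, every correlation being above 0.1, in 5 of 10 comparisons, with r from 0.114 to 0.404 for MitoCoat-mRNA against control. The alternatives were DESeq2, RLE size factors, no filter, all 15 samples in one fit, the replicate block and leaving out each library. The edgeR fit was also run on simulated counts with known changes, for H2O2 against control only and without filterByExpr. Its outcome is not given here. Figures were drawn with matplotlib 3.10.9.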

Additional observations from a re-analysis of the deposited data

How the results depend on the processing

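No called fold change of the 9 genes reversed in the alternatives run, and 0 of 9 genes were called in any of the 6 comparisons without the control group under any of them. The number called lower against control moved by more than 1.5 times with DESeq2 for MitoCoat (5 instead of 3). With 1 library left out, it lay between 0 and 2 for H2O2, between 1 and 3 for unmodified mitochondria, between 0 and 3 for MitoCoat and between 2 and 4 for MitoCoat-mRNA, and the number called higher lay between 0 and 1 for unmodified mitochondria and for MitoCoat (Pcna, without control replicate 1). The count after H2O2 was 3 with all 15 samples in one fit, which added Birc5 (adjusted p = 0.0344). Sums of the 9 genes moved by less than 1 SD with RLE size factors or library totals. With 3 libraries a group, leaving out 1 cannot move the mean by 1 SD, so that alternative says nothing about the sums.

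With the replicate number as a block, 2 genes were lower than control in the H2O2 group, 4 in the mitochondria group, 3 in the MitoCoat group and 6 in the MitoCoat-mRNA group. Shares of all genes called are given for the main fits only, so these counts and those under other alternatives have none beside them. For H2O2, unmodified mitochondria and MitoCoat against control, the lowest same-number correlation was 0.073, 0.091 and 0.016, under the limit of 0.1 used here. The highest correlation between samples of different number was 0.096, 0.025 and 0.032. With unmodified mitochondria each same-numbered pair thus still correlated more than any other pair. In the comparisons above that limit, the block changed no call other than those of Mki67 and Cdk1 with MitoCoat-mRNA against control.

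Counting error was at most 4.26% for any of the 9 genes in any library, and 3 libraries a group limit the precision of each comparison.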
